A study of Mus musculus with 8 samples.

Results

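Mylk4 and Ky are muscle genes whose transcripts were among the deepest falls in the tibialis anterior, a fast muscle at the front of the shin, in both of the cancer cachexia models studied. They are 2 of the 6028 genes listed in either of 2 tables of genes with significant changes. Both were chosen by the measured group values given below, so those values are a description and no test of these genes was run. The strain Balb/c had a healthy group and a group made cachectic, that is wasted, by metastases of 4T1 (a mouse breast cancer line). The strain CD2F1 had a healthy group and a group made cachectic by metastases of C26m2 (a mouse colon cancer line). All mice were 12 to 14 weeks old, and each group had 2 libraries of polyadenylated RNA. In the tumour groups the injected tumours carried luciferase, a light-emitting label, and were removed at 2 to 3 weeks, with killing at 5 weeks after injection. The labels record injection and surgery in no healthy group, and these and the metastases cannot be told apart. The study asked how muscle transcripts differ when metastatic cancer causes wasting, and each healthy group was the control of its own strain.

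Mylk4 (ENSMUSG00000044951) encodes a member of the myosin light chain kinase family. These kinases add phosphate to the regulatory light chain of myosin, those best studied when calcium-bound calmodulin activates them, and myosin phosphatase removes it. In fast skeletal muscle this phosphorylation raises the force of later contractions, and the kinase best known for it there is the product of Mylk2. Ky (ENSMUSG00000035606) encodes kyphoscoliosis peptidase, a protein of the Z-disc, where the thin filaments of neighbouring sarcomeres are anchored. Its loss in mice causes a myopathy with a curved spine that affects slow muscle such as soleus most, and the protein binds filamin C and Igfn1. The pair was taken up under the name of fast-fibre genes. The tables hold no measurement of fibre type, Ky stood on no fibre-type list used here, and both are therefore called by their names.

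The sequence upstream of Mylk4 is shown because it is the promoter of the more abundant of the 2 genes, with the muscle motifs that could be looked up in it. It is given 5′ to 3′ from RefSeq, as the 250 bases before the start of the gene at chr13:32783965-32784214 on the minus strand of build GRCm38.p6, with the motif matches in capitals.
Mylk4: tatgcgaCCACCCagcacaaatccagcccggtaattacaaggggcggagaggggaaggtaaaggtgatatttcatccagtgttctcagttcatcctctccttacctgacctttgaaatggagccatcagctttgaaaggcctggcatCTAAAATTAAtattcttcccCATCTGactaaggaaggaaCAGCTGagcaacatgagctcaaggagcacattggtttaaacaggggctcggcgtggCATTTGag
No exon of the GENCODE M21 annotation lay in these bases. From the 5′ end, the capitals mark a CACCC box (CCACCC), a MEF2 site, which is the binding motif of a family of muscle transcription factors, and 3 E-boxes (CANNTG, the motif of MyoD and related factors). Another E-box lay in the 50 bases after the start.

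Motifs were searched on both strands in 32851 promoters of 300 bases, from 250 before to 50 after the start, in the same RefSeq table. A MEF2 site was held by 3.19% of them, a CACCC box by 31.5% and an E-box by 72.3%. Among the 320 promoters matched to genes lower by 4-fold or more in both models, 2.81% held a MEF2 site, 45.6% a CACCC box and 69.1% an E-box. Among the 284 promoters of genes higher by as much in both models the shares were 2.11%, 41.2% and 63.7%. The Mylk4 window held no FoxO motif (TGTTTAC, in 3.65% of all promoters), no MEF3 motif (TCAGGTT, in 4.07%) and no CArG box (in 1.63%). It had 48.3% G and C and 5 CpG dinucleotides, near the medians of 52.7% and 7 over all promoters. The Ky window of the same table had 69.0% G and C, 31 CpG dinucleotides and 1 E-box, with none of the other motifs. Its 250 bases lay wholly within an exon of a longer GENCODE M21 transcript of Ky, so they are not printed and may not be the promoter in muscle. These matches describe letters in a window and do not show binding.

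Each value is the authors' group value in FPKM, a count of fragments relative to transcript length and library size, with 1 for each group of 2 libraries, so values carry no spread between libraries. Folds are ratios of these values. A gene is called lower or higher when the authors' Cuffdiff test put it in the table of its model, at a q-value of 0.05 or less. Of about 13218 genes tested in the 4T1 comparison, 15.4% were called lower and 17.4% higher. Of about 13121 tested in the C26m2 comparison, 15.1% were called lower and 21.7% higher. Since the choice of the 2 genes rested on these comparisons, nothing is read from their being called. Shares of a gene list are over all genes on it, tested or not, while the shares above are over tested genes alone. A list share could therefore be higher if counted over tested genes alone. Sequencing depth is unknown, and the tables may have been normalized separately, so levels and ratios across the 2 strains are given as descriptions.

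Mylk4, the kinase gene, stood at 475.7 FPKM in healthy Balb/c muscle and at 2.79 FPKM in 4T1 cachectic muscle. It stood at 932 FPKM in healthy CD2F1 muscle and at 43.1 FPKM in C26m2 cachectic muscle. Both healthy groups were therefore high and both cachectic groups low, with the C26m2 group between the healthy groups and the 4T1 group. The level fell 170.5-fold in the 4T1 model, leaving 0.586% of the healthy value, and 21.6-fold in the C26m2 model, leaving 4.62%. Among listed genes, Mylk4 held place 34 of 4334 by level in healthy Balb/c muscle and place 2914 in 4T1 cachectic muscle. In the C26m2 table it went from place 18 to place 920 of 4832. In the authors' deposited table of each model its p-value was 5e-05, the smallest that occurs, with a q-value of 0.000382 for 4T1 and 0.000319 for C26m2. That Cuffdiff p-value was held by 1727 of the 4334 genes listed for 4T1 and by 2058 of the 4832 listed for C26m2.

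Ky, the Z-disc gene, stood at 56.2 FPKM in healthy Balb/c muscle and at 0.182 FPKM in 4T1 cachectic muscle. It stood at 75.9 FPKM in healthy CD2F1 muscle and at 0.669 FPKM in C26m2 cachectic muscle. The order of the 4 groups was that of Mylk4, at a lower level in each. Ky fell 308.9-fold in the 4T1 model, leaving 0.324% of the healthy value, and 113.5-fold in the C26m2 model, leaving 0.881%. By level it went from place 423 to place 4163 of the 4334 genes listed for 4T1, and from place 353 to place 4242 of the 4832 listed for C26m2. In both cachectic groups it was thus among the lowest values listed, and since depth is unknown the error of such low values, and of the folds built on them, cannot be given. Its p-value and q-values in the authors' deposited table of each model were those of Mylk4. Without values by library, it cannot be said whether neighbouring levels in the order of groups differ beyond their spread.

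**Figure D1:**
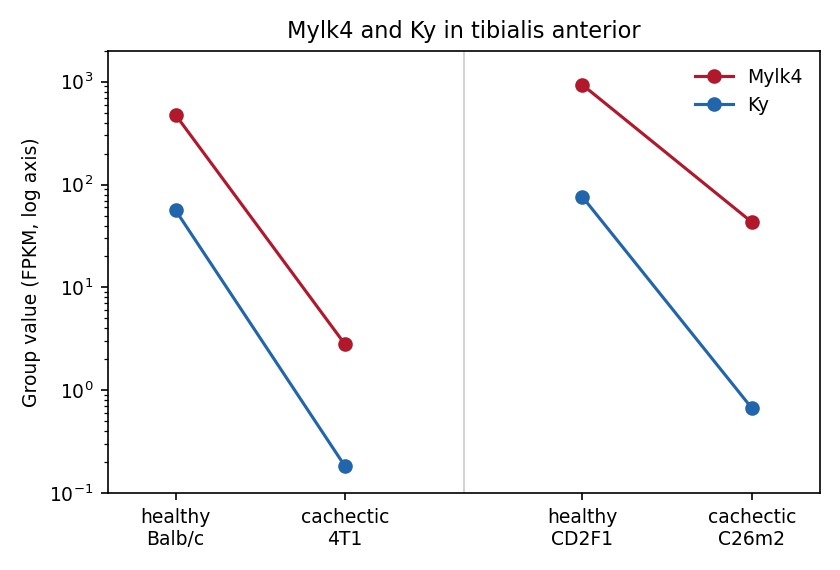
Authors' group FPKM (log axis) of Mylk4 and Ky in healthy Balb/c, 4T1 cachectic, healthy CD2F1 and C26m2 cachectic muscle, with 1 point for each group and no error bar because 1 value is given for each group of 2 libraries; lines join the groups of 1 comparison. Mylk4 runs from 932 FPKM down to 2.79 FPKM and Ky from 75.9 FPKM down to 0.182 FPKM, and both cachectic values of each gene lie below both of its healthy values.

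In the order of falls among the 2031 lower genes of the 4T1 model, Ky held place 1 and Mylk4 place 3. Between them stood Kcng4, which encodes a modifier subunit of potassium channels and fell 306-fold, from 30.8 to 0.101 FPKM. Fam78a followed Mylk4, from 23.8 to 0.156 FPKM, a 153-fold fall. Among the 1985 lower genes of the C26m2 model Ky came second, after Lrrc38, an accessory subunit of potassium channels, which fell 147-fold from 21.4 to 0.145 FPKM. Pld5, of the phospholipase D family, came next after Ky with a 96.2-fold fall, from 1.92 to 0.0200 FPKM. Mylk4 held place 38 there, next to Itgb1bp3 at 21.9-fold and BC023105 at 20.7-fold. The median fall over all lower genes was 3.09-fold in the 4T1 model and 2.61-fold in the C26m2 model.

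The falls were also set against the healthy level. Among the 28 lower genes of the 4T1 model with a healthy level at or above its own, Mylk4 had the deepest fall, and so it did among 15 such genes in the C26m2 model. Ky was likewise first among 244 genes in the 4T1 model and among 166 in the C26m2 model. Both genes were chosen for their falls, so these places are a description. For Ky, and for Mylk4 in the 4T1 model, they follow from the order of falls, since any gene ahead had a lower healthy level. Of 147 lower genes with 100 FPKM or more in healthy Balb/c muscle, the next after Mylk4 was the collagen gene Col1a1, from 105 to 1.01 FPKM (105-fold). In the C26m2 model, 125 lower genes had that healthy level, and Itgb1bp3 (147 to 6.71 FPKM) and Mylk4 led them. Casq1, which encodes the calcium-storing calsequestrin of fast fibres, followed there at 20.4-fold, from 1355 to 66.4 FPKM.

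**Figure D2:**
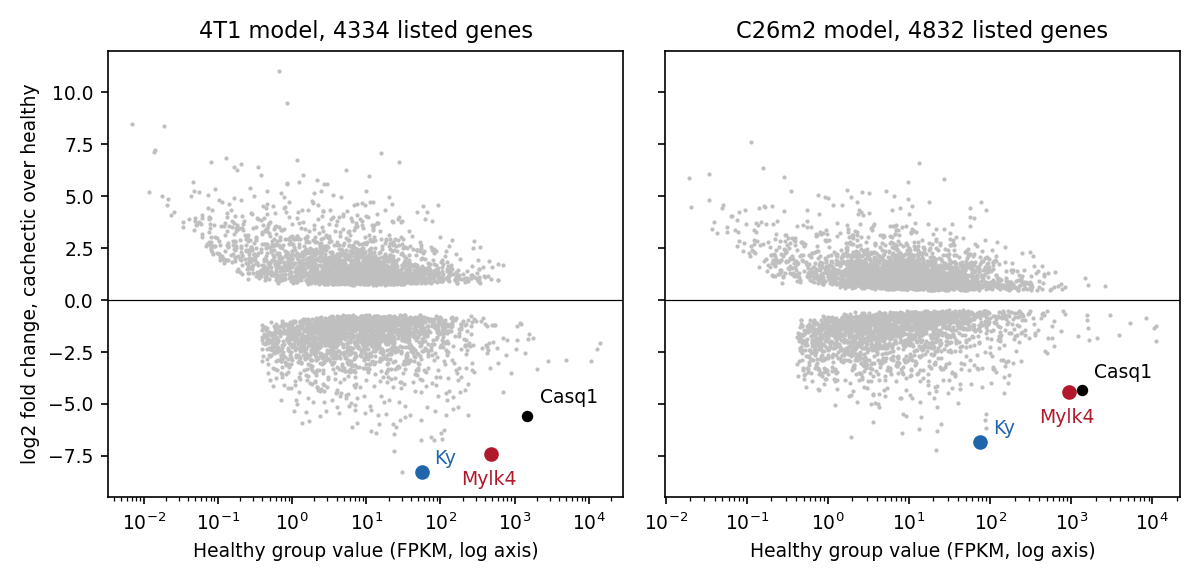
Log2 fold change, cachectic over healthy, against the healthy group value in FPKM (log axis) for every listed gene, 4334 in the 4T1 model and 4832 in the C26m2 model, 1 point for each gene. Mylk4 (red) has a log2 fold change of -7.41 and -4.44 and Ky (blue) of -8.27 and -6.83, and Casq1 (black) marks another gene of high healthy level.

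Both genes kept less of their healthy level in the 4T1 model than in the C26m2 model. The log2 fold change was less negative in the C26m2 model by 2.98 for Mylk4 and by 1.44 for Ky. Over the 1368 genes lower in both models the median of this difference was 0.40, its 5th percentile -0.74 and its 95th percentile 1.61. Only 2 of these genes had a larger difference than Mylk4, and 91 a larger one than Ky. The difference between models was not tested, and strain, tumour line and table differ together in it, so these cannot be told apart. Of the same genes, 75.8% fell more deeply in the 4T1 model.

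The gap for Mylk4 was wide in the cachectic groups and present in the healthy ones. Its C26m2 cachectic level was 15.4 times its 4T1 cachectic level, while that of Ky was 3.67 times as high and the median ratio over genes lower in both models was 1.20. In healthy muscle the CD2F1 level of Mylk4 was 1.96 times the Balb/c level, and that of Ky 1.35 times. Over the 3138 genes listed in both tables the healthy ratio had a median of 0.940 and its 5th to 95th percentile ran from 0.576 to 1.52, with 65 genes above Mylk4 and 261 above Ky. Mylk4 exceeded Ky in every group, by 8.46 times in healthy Balb/c, 15.3 times in 4T1 cachectic, 12.3 times in healthy CD2F1 and 64.4 times in C26m2 cachectic muscle. The ratios between strains run across tables that may have been normalized separately, and the spread between libraries around any of these ratios is not known.

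Of the 1368 genes lower in both models, 81 fell by 10-fold or more in each, and Ky was the 1 gene that fell by 100-fold or more in each. Ordered by the shallower of its 2 falls, Ky was first and Mylk4 was in place 27. The genes next to Ky in this order were Plcd4, a phospholipase C gene (86.3-fold in 4T1 and 80.1-fold in C26m2), and Tmem233 (108-fold and 72.2-fold).

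**Figure D3:**
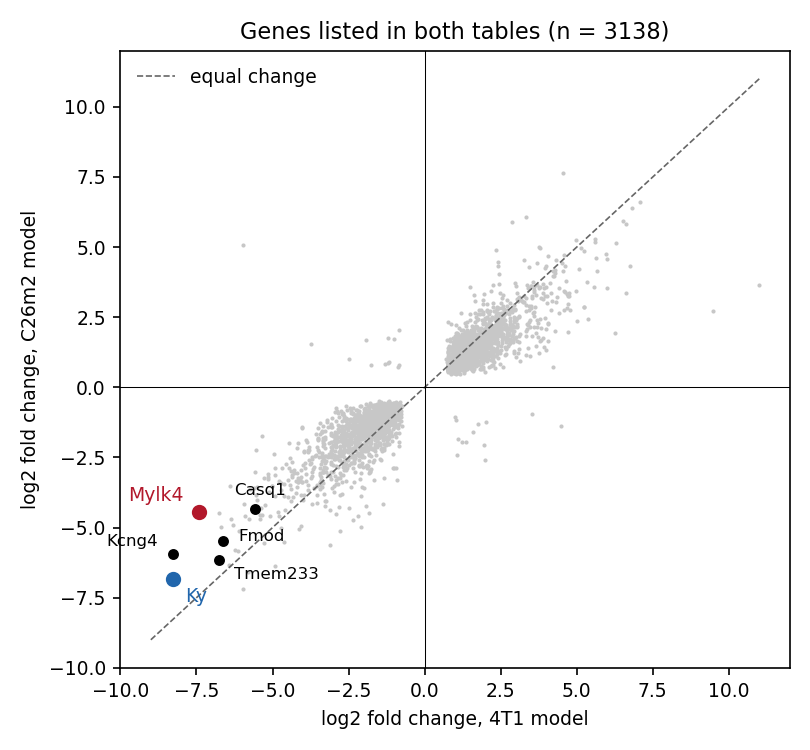
Log2 fold change in the C26m2 model against that in the 4T1 model for the 3138 genes listed in both tables, 1 point for each gene, with a dashed line of equal change. Mylk4 (red) and Ky (blue) lie above the line, by 2.98 and 1.44, which means a deeper fall in the 4T1 model, and 4 other genes named in the text are in black.

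Likeness to each gene was measured as the Euclidean distance between log2 FPKM profiles over the 4 groups, each profile centred on its own mean, among 3137 other genes listed in both tables. Nearest to Ky were Kcng4 (distance 0.69), Tmem233 (1.37), Fmod (1.54), Plcd4 (1.80), Cyp4f39 (1.96) and D0H4S114 (2.07), where the median over all genes was 8.57. Fmod encodes fibromodulin, a collagen-binding proteoglycan of tendon, and Cyp4f39 a cytochrome P450. Fmod went from 73.8 to 0.753 FPKM in the 4T1 model and from 87.9 to 1.96 FPKM in the C26m2 model. D0H4S114 went from 111 to 1.47 FPKM and from 85.9 to 1.55 FPKM.

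Nearest to Mylk4 were Cacna2d4, an auxiliary calcium channel subunit (distance 1.74), Cyp4f39 (1.75), Lrtm2 (1.84), Fmod (1.89), Nt5c1a, a nucleotidase that acts on AMP (1.99), and Kcng4 (2.03), with a median over all genes of 7.45. Cacna2d4 fell 47.5-fold in the 4T1 model and 8.04-fold in the C26m2 model, from healthy levels of 2.42 and 3.71 FPKM. Nt5c1a fell 32.7-fold and 11.5-fold, from 7.03 and 12.8 FPKM. Ky was the ninth nearest to Mylk4, at a distance of 2.22, and Mylk4 the eleventh nearest to Ky. These profiles rest on 4 values each, and any gene that fell deeply in both models comes close to the pair.

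The other light chain kinases of the family, Mylk of smooth muscle, Mylk2 of skeletal muscle and Mylk3 of heart, were in neither table, so no value of them is given. Lists that hold Mylk4 or Ky are counted without that gene, since it was chosen for its fall. Of the 10 other genes on a list of light chain kinases, calmodulins and myosin phosphatase subunits, 3 fell and 1 rose in the 4T1 model, and 3 fell and 2 rose in the C26m2 model, so 30% was lower in each beside 15.4% and 15.1% of all genes tested. Calm3, which encodes the calcium sensor calmodulin, went from 180 to 18.8 FPKM in the 4T1 model (9.56-fold) and from 210 to 38.4 FPKM in the C26m2 model (5.48-fold). Calm2, another calmodulin gene, fell 4.66-fold and 3.92-fold. Ppp1r12a, the targeting subunit of myosin phosphatase, rose 2.31-fold and 1.76-fold. The median log2 fold change of the listed members without Mylk4 was -1.98 in the 4T1 model and -1.45 in the C26m2 model, beside 0.86 and 0.72 over all listed genes.

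The listed light chains, of which only the regulatory ones are substrates of these kinases, fell by far less than Mylk4 or rose. Mylpf, the fast regulatory light chain, went from 13985 to 3285 FPKM in the 4T1 model (4.26-fold) and from 11181 to 4713 FPKM in the C26m2 model (2.37-fold). Myl1, the fast essential light chain, fell 5.14-fold and 2.55-fold, and Myl2, the regulatory light chain of slow fibres and ventricle, fell 5.44-fold and 3.16-fold from healthy levels of 13.3 and 22.4 FPKM. Myl3, the essential light chain of slow fibres and ventricle, fell from 12.5 to 3.66 FPKM in the 4T1 model and rose from 9.43 to 16.3 FPKM in the C26m2 model. Of 11 light chain genes, 4 fell in the 4T1 model, and 3 fell and 1 rose in the C26m2 model, with medians of -2.23 and -1.30 for the log2 fold changes. The lower shares were 36.4% and 27.3%, beside 15.4% and 15.1% of all genes tested. In the C26m2 model 9.09% rose, beside 21.7% of all genes tested.

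Of 22 calcium-dependent and sarcomeric kinases besides Mylk4, 7 fell and 2 rose in the 4T1 model, and 6 fell and 3 rose in the C26m2 model. So 31.8% and 27.3% of these kinases were lower, beside 15.4% and 15.1% of all genes tested. The higher shares were 9.09% and 13.6%, beside 17.4% and 21.7%. The median log2 fold changes of the listed kinases without Mylk4 were -1.27 and -1.04. Mylk4 had the highest level of the listed kinases in both healthy groups, with 47.1% of their summed FPKM in Balb/c and 65.6% in CD2F1 muscle. In the cachectic groups its share was 2.38% with 4T1 and 22.1% with C26m2, and the kinases summed were those listed for each model. Camk2a, a calmodulin-dependent kinase, fell next most deeply, from 129 to 6.20 FPKM (20.8-fold) and from 158 to 20.1 FPKM (7.87-fold). Phkg1, the catalytic subunit of muscle phosphorylase kinase, fell 9.79-fold and 4.02-fold. Camk1d, listed for C26m2 alone, fell 7.64-fold from 0.434 FPKM.

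Ky, which was chosen for its fall, fell far more deeply than the other listed genes of the Z-disc. Of 36 Z-disc genes and KY partners besides Ky, 13 fell and 2 rose in the 4T1 model, with a median log2 fold change of -2.39, so 36.1% of them were lower beside 15.4% of all genes tested. In the C26m2 model 12 fell and 11 rose, which is 33.3% lower and 30.6% higher beside 15.1% and 21.7% of all genes tested, with a median of -0.68. The next deepest falls were those of Mybph, a myosin-binding protein, from 54.9 to 1.02 FPKM (53.9-fold) and from 3.55 to 0.286 FPKM (12.4-fold). Synpo2, a Z-disc protein that binds the chaperone factor Bag3, fell 12.9-fold and 8.88-fold.

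Partners of the KY protein moved the other way where they were listed. Flnc, which encodes filamin C, rose from 56.6 to 263 FPKM in the C26m2 model (4.65-fold), and Igfn1 rose from 5.08 to 31.9 FPKM (6.28-fold). Neither was in the 4T1 table, and Mybpc1 and Ttn, also on the list of KY partners and sarcomere genes, were in neither table. Bag3, which directs damaged filamin to autophagy, rose from 39.0 to 86.9 FPKM in the C26m2 model and was not in the 4T1 table. Of 15 genes of chaperone-assisted autophagy, 5 rose and 4 fell in the 4T1 model, and 6 rose and 2 fell in the C26m2 model, with median log2 fold changes of 1.30 and 1.94. The higher shares were 33.3% and 40%, beside 17.4% and 21.7% of all genes tested. The lower shares were 26.7% and 13.3%, beside 15.4% and 15.1%, so the list was mixed in the 4T1 model. Sqstm1, the autophagy receptor p62, rose 5.66-fold and 4.36-fold, and the small heat shock gene Hspb1 rose 4.86-fold and 4.61-fold. Hspb7, another small heat shock gene, rose 2.80-fold and 11.9-fold.

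**Figure D4:**
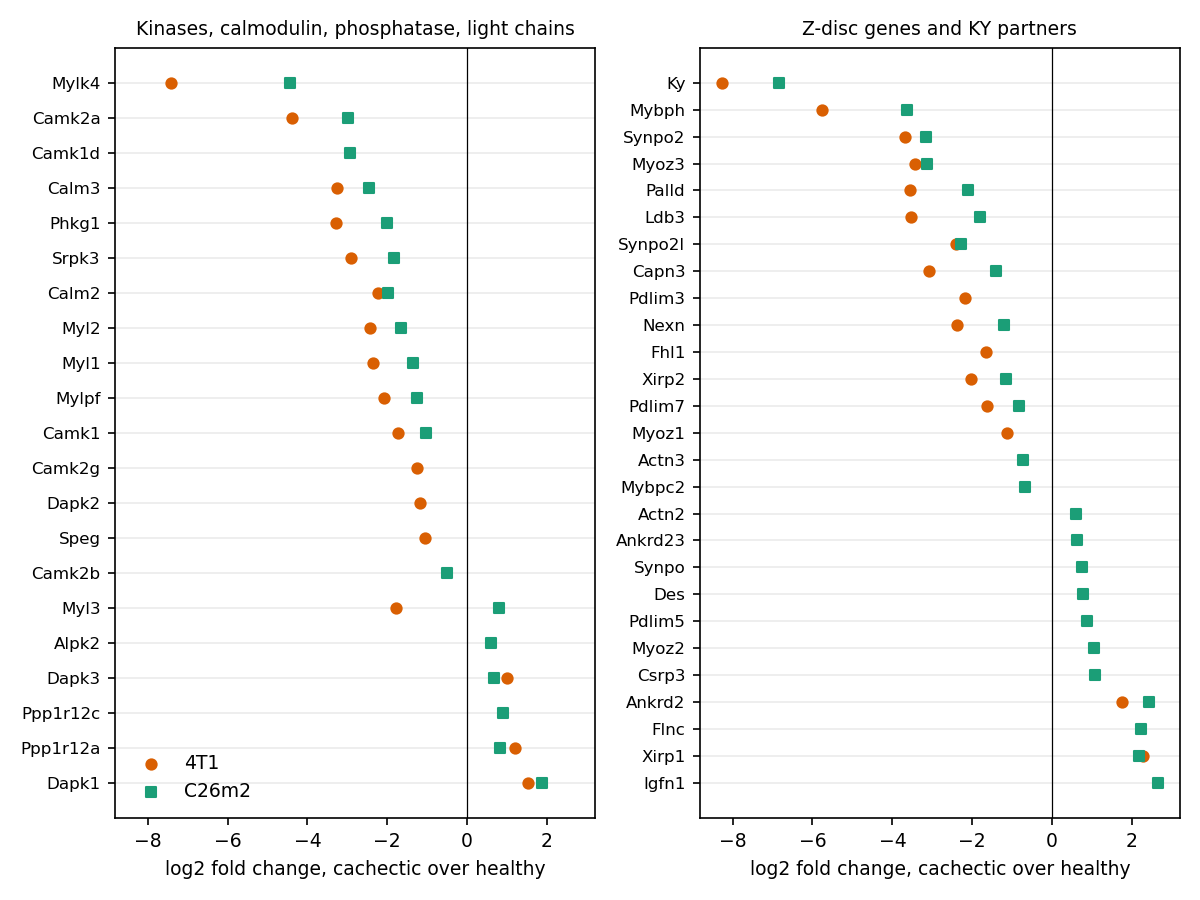
Log2 fold change, cachectic over healthy, in the 4T1 model (orange circles) and the C26m2 model (green squares) for listed members of the kinase, calmodulin, phosphatase and light chain lists (left) and of the Z-disc list (right), ordered by the mean of the values shown. A missing mark means that the gene is not in that table, and Mylk4 and Ky stand at the far left of their panels, at -7.41 and -8.27 in the 4T1 model.

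Of 29 genes of fast-fibre contraction and calcium release besides Mylk4, 11 fell and none rose in the 4T1 model, and 17 fell and 1 rose in the C26m2 model, with medians of -2.36 and -1.05. The lower shares were 37.9% and 58.6%, beside 15.4% and 15.1% of all genes tested. Casq1 fell 47.6-fold and 20.4-fold, and Sypl2, a protein of the junction between T-tubule and calcium store, fell 45.7-fold and 16.1-fold. Cacng1, a calcium channel subunit, was the gene that rose, 2.30-fold in the C26m2 model. The fast myosin heavy chain Myh4 was in neither table. Of 18 slow-fibre genes, 4 rose and 3 fell in the 4T1 model, and 5 rose and 1 fell in the C26m2 model, with medians of 1.76 and 0.91. The higher shares of 22.2% and 27.8% were near the 17.4% and 21.7% of all genes tested, as was the lower share of 16.7% in the 4T1 model to 15.4%. Sln, which encodes the calcium pump inhibitor sarcolipin, rose 30.6-fold in the 4T1 model, from 0.791 to 24.2 FPKM, and the slow-fibre calsequestrin Casq2 fell 5.33-fold there. Ankrd2, a stretch-responsive sarcomere gene, rose 3.38-fold and 5.41-fold, and Csrp3, a Z-disc LIM protein, rose in the C26m2 model from 21.7 to 45.6 FPKM.

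Transcription regulators of muscle and fibre type moved in both directions. Of 42 such genes, 10 fell and 9 rose in the 4T1 model, and 11 fell and 14 rose in the C26m2 model, with medians of -0.77 and 0.61. The higher shares were 21.4% and 33.3%, beside 17.4% and 21.7% of all genes tested, and the lower shares 23.8% and 26.2%, beside 15.4% and 15.1%. In the MEF2 family, Mef2c fell from 127 to 9.48 FPKM (13.4-fold) and from 104 to 16.1 FPKM (6.49-fold), while Mef2a rose from 32.5 to 59.3 FPKM and Mef2d from 78.5 to 126 FPKM in the C26m2 model, and neither was in the 4T1 table. Maf, a regulator of fast fibres, fell 10.3-fold and 11.7-fold. Ppargc1a, a coactivator of oxidative fibres, rose 11.6-fold and 3.54-fold, and Foxo1, a factor of the atrophy programme, rose 9.57-fold and 8.18-fold. Of 22 genes of the neuromuscular junction and denervation, 6 rose and 5 fell in each model, with medians of 0.75 and 0.68. The higher share was 27.3% in each, beside 17.4% and 21.7% of all genes tested. The lower share was 22.7% in each, beside 15.4% and 15.1%. Among these 22 genes were Runx1 (21.5-fold and 11.7-fold higher), which is induced in denervated muscle, and Ache, the acetylcholinesterase gene (13.2-fold and 9.41-fold lower). Chrne, the adult acetylcholine receptor subunit, fell 3.91-fold in the 4T1 model and 4.84-fold in the C26m2 model.

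The tissue label was checked against 30 genes of skeletal muscle identity. In healthy muscle the listed ones included very abundant transcripts, such as Pvalb, the fast-fibre calcium buffer parvalbumin, at 10602 FPKM in Balb/c and 11238 FPKM in CD2F1 and Eno3, the muscle enolase, at 4944 and 3922 FPKM. In the 4T1 model 7 fell and none rose, and in the C26m2 model 11 fell and 5 rose, with medians of -2.09 and -0.83. The lower shares were 23.3% and 36.7%, beside 15.4% and 15.1% of all genes tested. The higher share of 16.7% in the C26m2 model was below the 21.7% of all genes tested. Their summed level went from 32874 to 5889 FPKM over the 7 listed for 4T1 and from 45307 to 23055 FPKM over the 16 listed for C26m2. In bulk tissue, fewer cells of a type and less RNA per cell cannot be told apart.

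Markers of other cells moved in both directions. Sums of FPKM hold only the markers listed for that model. The listed markers differ between models, so sums cannot be compared across models or strains. Over all genes tested, 15.4% and 15.1% were lower and 17.4% and 21.7% higher in the 4T1 and C26m2 models. Of 14 fibroblast markers, 11 fell in the 4T1 model and 13 in the C26m2 model, which is 78.6% and 92.9%. Their summed levels went from 757 to 160 FPKM and from 693 to 207 FPKM. Of 10 tendon markers, 6 fell in each model (60%), in sum from 152 to 7.02 FPKM and from 155 to 11.8 FPKM. Fmod, a near neighbour of both genes in profile, is one of them. Of 14 neutrophil markers, 7 rose in the 4T1 model (50%, 3.42 to 2136 FPKM) and 5 in the C26m2 model (35.7%, 8.54 to 110 FPKM). Of 18 liver transcripts, 2 rose in the 4T1 model (11.1%, 1.32 to 19.5 FPKM) and 16 fell in the C26m2 model (88.9%, 233 to 29.6 FPKM). The 11.1% was below the share of all genes tested, though it is over all 18 transcripts, tested or not.

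The remaining marker lists were read against the shares of all genes tested, 15.4% and 15.1% lower and 17.4% and 21.7% higher. Their sums again hold only the markers listed for that model, such as 7 macrophage markers for 4T1 and 11 for C26m2. Of 13 macrophage markers, 5 fell and 2 rose in the 4T1 model (13.0 to 61.4 FPKM) and 10 fell and 1 rose in the C26m2 model (61.6 to 30.5 FPKM). Their median log2 fold changes were -2.07 and -1.70, and the 4T1 sum rose through Cd68 (2.64 to 51.8 FPKM) and Itgam (0.418 to 6.46 FPKM). Of 12 endothelial markers, 4 rose and 1 fell in the 4T1 model (68.4 to 119 FPKM) and 7 rose in the C26m2 model (89.7 to 190 FPKM). Of 10 Schwann cell markers, 20% and 50% fell (34.4 to 18.6 FPKM and 72.1 to 32.9 FPKM). Of 10 smooth muscle markers, 20% and 30% fell (171 to 37.6 FPKM and 179 to 59.3 FPKM). The 20% of either list in the 4T1 model was near the share of all genes. Of 10 adipocyte markers, 1 rose in the 4T1 model (79.8 to 304 FPKM), and 1 rose and 4 fell in the C26m2 model (128 to 304 FPKM), with a median log2 fold change of -2.34 there. The gene that rose in both was Lpl, from 79.8 to 304 FPKM and from 91.0 to 299 FPKM, and it sets the sums. No listed marker was at 0 in any group. The part of these cells in the falls of Mylk4 and Ky was not tested.

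The genes directly beside Mylk4 and Ky on the chromosome were not listed. On chromosome 13, the genes on either side of Mylk4, Gmds and Wrnip1, were in neither table, and a longer predicted RefSeq model of Mylk4 overlaps Wrnip1. Within 3 genes of Mylk4, Foxc1 rose from 0.298 to 0.966 FPKM and Serpinb1c fell from 0.749 to 0.165 FPKM in the 4T1 model, and Serpinb1a fell from 1.30 to 0.495 FPKM in the C26m2 model. On chromosome 9, the genes on either side of Ky, Ephb1 and Cep63, were in neither table. Within 3 genes of Ky, Ppp2r3a, a phosphatase subunit, fell from 77.9 to 12.6 FPKM in the 4T1 model and from 60.3 to 18.5 FPKM in the C26m2 model. Amotl2, on the other side, was higher with cachexia, at 34.9 against 6.48 FPKM and at 18.6 against 4.58 FPKM. Use of strand in the counting was not given in the sources used here.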

How the data were processed

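RNA was measured in 8 libraries of tibialis anterior, 2 in each of 4 groups. Per the submitters' processing notes, the authors used TopHat2 2.1.0, Cufflinks 2.2.1 and Cuffdiff on mouse build NCBIM37; the annotation release, library normalization and use of strand were not given in the sources used here. The authors deposited 1 table for each model, with 1 FPKM value for each group, per the file headers. The deposited log2 fold change is of cachectic over healthy, and it matched the log2 ratio of the FPKM values to within 1.4e-05. Each deposited p-value and q-value is from the authors' Cuffdiff test. The labels do not say which library came from which animal, so these p-values measure the spread between libraries, which may be technical.

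Folds, places in order, distances and list counts were computed with pandas 2.3.3 and numpy 2.4.6 under Python 3.11.15, with no pseudocount, filter or test added. The number of genes tested was taken from q times rank over p, which ran from 13178 to 13337 for 4T1 and from 13117 to 13147 for C26m2. This step and the distance were tested on simulated data. The members and the 19 lists (309 symbols, all matched to a gene) were chosen with earlier results of these data known. Named genes are the members, their kinase family, the light chains Mylpf, Myl1 and Myl2, the KY partners and Bag3 whatever their values, the 6 genes most like each member, neighbours in the order of falls, and up to 3 members of each list with the largest changes in each model. Genes named outside this rule were chosen after their values were seen: Myl3, Cacng1, Ppp1r12a, Col1a1, Myh4, the genes beside Mylk4 and Ky on the chromosome, and, in places where the rule did not name them, Plcd4, Tmem233 and Hspb1. Marker lists are given by their counts and sums, with Cd68, Itgam and Lpl named where they set a sum; these, Mef2a and Mef2d were also chosen after their values were seen. Some list members are not reported here by name. Promoters (27025 genes) and gene order came from RefSeq (GRCm38.p6) and exons from GENCODE M21, a build that differs from the authors', and were used for sequence, names and order only. Figures were drawn with matplotlib 3.10.9.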

Additional observations from a re-analysis of the deposited data

Results flagged for a closer look

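Among the genes named with the pair, Myl3, the essential light chain of slow fibres and ventricle, moved in opposite directions in the 2 models. Its log2 fold change was -1.77 with 4T1 and 0.79 with C26m2, where the light chains Mylpf, Myl1 and Myl2 fell in both. The C26m2 rise had a q-value of 0.0318 in the authors' Cuffdiff test. With q of 0.01 or less, or an absolute log2 fold change of at least 1, no light chain counted as higher there. The difference between the models was not tested, since values by library were not used here.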

How the results depend on the processing

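With 0.1 FPKM added to every group value the log2 fold change of Ky in the 4T1 model was -7.64, and with 1 FPKM added it was -5.60 there and -5.53 in the C26m2 model. Among lower genes of the 4T1 model, with 1 FPKM added, Mylk4 came first and Ky was in place 3. In the C26m2 model Mylk4 moved to place 19 with 0.1 FPKM and to place 5 with 1 FPKM, and Ky to place 1 with either. Of the 6 genes most like Mylk4, 3 were kept with 0.1 FPKM added and 2 when the 2 log2 fold changes alone were compared. With an absolute log2 fold change of at least 1 asked for, 11 fast-fibre genes, Mylk4 included, were lower in the C26m2 model. That limit also left 6 higher Z-disc genes, 6 lower muscle identity genes and 3 higher endothelial markers there, in place of 11, 11 and 7. It turned the C26m2 regulators from 14 higher and 11 lower to 7 and 8, and q of 0.01 or less left 9 and 9. Of 228 list counts, 29 moved by more than 1.5 times. In these cases the added value or the stricter limit itself moves the low or small values. Of 258 alternatives, motif searches apart, 218 stayed within 1.5 times of the value reported, or of the count for a list. Most were list counts, 228 in all, of which 199 stayed, and many of these were small or 0. The pooled count therefore says little of Mylk4 and Ky themselves, whose moved values are given above. Adding the same value to both groups cannot change the sign of a fold change, so the sign was not put to a test. The depth of the libraries is unknown, so the precision of group values below 1 FPKM, such as those of Ky in cachectic muscle, cannot be given. No paired analysis was possible because each group has 1 value and the columns carry no replicate numbers, and leaving out single libraries could not be run for the same reason. The planned comparison of protein sequences was not run.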
